A study of Homo sapiens with 12 samples.

Results

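The nuclear receptor family was followed as 37 genes given by symbol, from NR1D1 to HNF4G, which matched 45 of the 29094 accession rows of the count table. Of the 37 genes, 26 had enough reads to be tested and 11 did not. Messenger RNA was sequenced from MCF10AT, an established human mammary epithelial line that carries an activated HRAS (HRasG12V). EP300 encodes p300, an acetyltransferase that serves many transcription factors as a coactivator. The 4 groups, of 3 libraries each, were EP300 KD1 and its control NS1, and EP300 KD2 and its control NS2. EP300 KD1 and EP300 KD2 express different shRNAs against EP300, and NS1 and NS2 express non-silencing shRNAs. The labels speak of a control for each shRNA without naming it, so NS1 was set against EP300 KD1 and NS2 against EP300 KD2 by their numbers. All 4 lines were transduced with lentivirus, selected with 1 µg/ml puromycin for 3 days and grown in the same medium, which holds 100 µg/ml hydrocortisone, a ligand of the glucocorticoid receptor, 10 µg/ml insulin, 20 ng/ml EGF and 5% horse serum. The labels do not say whether a line is a clone or a pool, or whether its 3 libraries are separate cultures, so that p-values cover only a spread between libraries that may be technical.

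Nuclear receptors are transcription factors that bind DNA through a pair of zinc fingers and, in most members, switch partner proteins when a lipid-soluble ligand enters their ligand-binding domain. Steroid receptors act mainly as homodimers. Receptors for retinoic acid, vitamin D, thyroid hormone, fatty acids and oxysterols pair with an RXR, exchange corepressors for coactivators on binding ligand, and then recruit acetyltransferases such as p300 and its relative CBP (CREBBP). Orphan receptors have no established natural ligand. In mammary epithelium the family is best known for the estrogen and progesterone receptors, and basal-type lines such as MCF10A derivatives are usually low in both.

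The EP300 KD1 libraries held 31396653 to 35024772 counts, against 32674926 to 45606950 in NS1, and the EP300 KD2 libraries 31582157 to 40700951, against 32112613 to 33951970 in NS2. EP300 itself (NM_001429) read 108, 106 and 108 CPM in EP300 KD1, against 172, 177 and 167 CPM in NS1, and 95.1, 100 and 92.3 CPM in EP300 KD2, against 165, 180.3 and 177 CPM in NS2. Its log2 change was -0.68 ± 0.03 (SE, edgeR adjusted p = 2.6e-12) with the first shRNA and -0.86 ± 0.04 (SE, edgeR adjusted p = 1.1e-13) with the second, which left a fitted 62.4% of the control level in EP300 KD1 and 55.0% in EP300 KD2. Its paralog CREBBP did not pass the test in either comparison (log2 -0.03, edgeR adjusted p = 0.445, and -0.06, edgeR adjusted p = 0.0916). Levels are given in CPM, the counts of a gene scaled to a common library size after TMM normalization. They are not divided by transcript length, so they compare a gene between groups and not one gene with another. Among 10 mammary epithelial markers, KRT5, KRT17, KRT18, ITGB4, CDH1, EPCAM and TP63 were well detected, while KRT14 stayed at or below 1.11 CPM and KRT8 at or below 3.81 CPM. KRT8 has 2 accession rows, and the one with the most counts (NR_045962) is non-coding. How reads shared between rows were counted is not given, so a low level cannot be read from KRT8.

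More of the receptors were lower than higher in both EP300 shRNA lines. In EP300 KD1 against NS1, 13 of the 26 tested receptors were lower and 5 higher at an edgeR adjusted p under 0.05, and 8 did not pass. Over all 13424 rows tested, 32.3% were lower and 32.6% higher in that comparison, 64.9% in all. In EP300 KD2 against NS2, 17 were lower, 2 higher and 7 did not pass, where 29.9% of all rows were lower and 27.9% higher, 57.8% in all. The counts of higher receptors moved when single libraries were left out: without NS1 replicate 2 there were 3 in EP300 KD1, and in EP300 KD2 HNF4G alone was left without NS1 replicate 1, NS2 replicate 1 or 3, EP300 KD1 replicate 1 or 2, or EP300 KD2 replicate 2 or 3. The median log2 change of the 26 receptors was -0.18 for EP300 KD1 and -0.33 for EP300 KD2, and that of all rows was -0.01 for EP300 KD1 and 0.00 for EP300 KD2. A change of at least 2-fold was rare. In EP300 KD1 it was reached by RARG, THRB and ESR1 downward (4.34% of all rows) and by RORA upward (5.85%), and in EP300 KD2 by THRB downward (5.13%) and by HNF4G upward (2.95%). HNF4G passed the filter on low counts mainly through NS1 and EP300 KD2, where it was high, so no rise was read from it.

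The receptors lower with both shRNAs were RXRA, RARG, THRB, PPARG, PPARD, NR1H3, ESRRA, NR2F1, NR2F6, NR6A1 and NR4A2. They make 11 of 26, or 42.3%, where 17.3% of all rows tested were lower in both comparisons. At the edgeR adjusted p, 0 receptors were higher with both, against 15.3% of all rows. At an unadjusted p under 0.05 the count was also 0, and DESeq2 and limma-voom gave 0 each. NR2C2 was higher with both in 4 other settings, in which its small change in EP300 KD2 passed, among them library totals alone (log2 0.11, edgeR adjusted p = 0.00262). RARA and PPARA were called in opposite directions (7.69% of the receptors, 11.2% of all rows), 5 receptors passed only with the first shRNA, 6 only with the second, and NR4A1 and ESR2 with neither. The libraries of EP300 KD1 lay wholly below NS1 in 13 receptors (33.8% of all rows) and wholly above in 6 (33.9%), and those of EP300 KD2 wholly below NS2 in 17 (32.6%) and above in 2 (30.9%). In 10 receptors all 6 EP300 shRNA libraries lay below all 6 control libraries, and NR2C2 lay above them in all 6. Among all rows 15% lay wholly below and 13.3% wholly above.

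**Figure D1:**
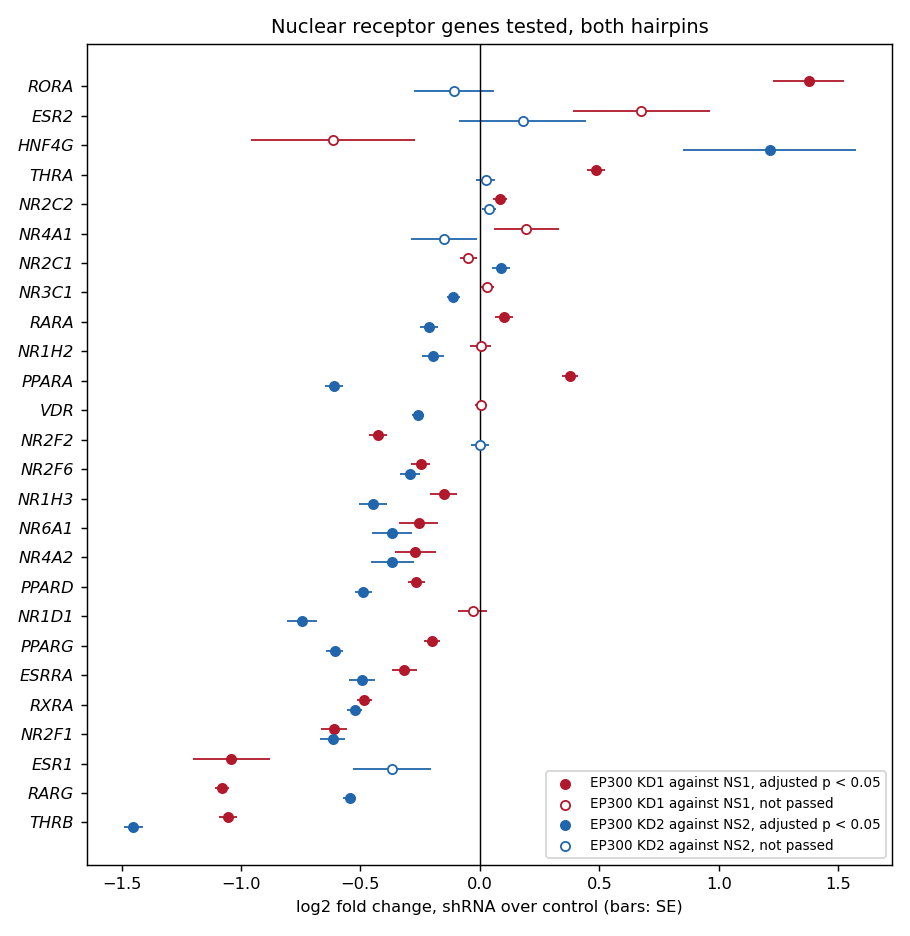
Log2 fold change of each tested receptor (rows), EP300 KD1 over NS1 in red and EP300 KD2 over NS2 in blue, with bars of 1 SE; filled points passed the edgeR test at an adjusted p under 0.05 and open points did not. Most points lie left of 0, THRB is lowest with the second shRNA at -1.45, and RORA is highest with the first at 1.38.

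Among the receptors for retinoids and thyroid hormone, RXRA, RARG and THRB were lower in all 6 EP300 shRNA libraries than in any control. RXRA (NM_002957) encodes the shared partner of the retinoid, vitamin D, thyroid, PPAR and LXR receptors. Its level was 157, 157 and 151 CPM in EP300 KD1, against 224, 206 and 220.1 CPM in NS1, and 149, 150.2 and 145 CPM in EP300 KD2, against 218, 207 and 214 CPM in NS2. The shRNA libraries and controls did not overlap in either set, with log2 changes of -0.48 ± 0.03 (SE, edgeR adjusted p = 8.97e-11) for EP300 KD1 and -0.52 ± 0.03 (SE, edgeR adjusted p = 3.59e-11) for EP300 KD2. The change with the second shRNA minus that with the first was -0.04 (95% interval -0.13 to 0.05) and did not pass.

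RARG (NM_001243732) encodes retinoic acid receptor gamma, the main retinoic acid receptor of stratified epithelium. It read 64.8, 64.4 and 62.2 CPM in EP300 KD1, against 136, 134 and 135 CPM in NS1, and 81.6, 82.7 and 86 CPM in EP300 KD2, against 119, 125 and 120.5 CPM in NS2. All EP300 shRNA libraries were low, the EP300 KD1 ones more so. RARG had a log2 change of -1.08 ± 0.03 (SE, edgeR adjusted p = 1.8e-16) in EP300 KD1 and -0.55 ± 0.03 (SE, edgeR adjusted p = 4.85e-12) in EP300 KD2, and the second change minus the first was 0.53 ± 0.04 (SE, edgeR adjusted p = 3.29e-09).

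THRB (NM_001252634) encodes thyroid hormone receptor beta. Its level was 21.9, 21.1 and 20.8 CPM in EP300 KD1, against 44.9, 43 and 44.5 CPM in NS1, and 13.8, 14.3 and 14.9 CPM in EP300 KD2, against 38.5, 39.9 and 39 CPM in NS2. Here the EP300 KD2 libraries were the lowest of all 12. This is a log2 change of -1.05 ± 0.04 (SE, edgeR adjusted p = 1.04e-14) in EP300 KD1 and -1.45 ± 0.04 (SE, edgeR adjusted p = 3.35e-16) in EP300 KD2, a difference of -0.40 ± 0.06 (SE, edgeR adjusted p = 7.6e-06).

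The promoters of these 3 genes are shown because their mRNAs were lower in every EP300 shRNA library. Each sequence is the RefSeq window on GRCh38.p14 from 250 bases before to 50 after the gene's outermost start, on the gene's strand: chr9:134326205-134326504 (plus strand) for RXRA, chr12:53232160-53232459 (minus strand) for RARG and chr3:24495659-24495958 (minus strand) for THRB. Capitals mark GGGCGG, the core of the GC box bound by SP1-family factors, on either strand (CCGCCC on the other), and AGGTCA, the hexamer that many nuclear receptors bind.
RXRA: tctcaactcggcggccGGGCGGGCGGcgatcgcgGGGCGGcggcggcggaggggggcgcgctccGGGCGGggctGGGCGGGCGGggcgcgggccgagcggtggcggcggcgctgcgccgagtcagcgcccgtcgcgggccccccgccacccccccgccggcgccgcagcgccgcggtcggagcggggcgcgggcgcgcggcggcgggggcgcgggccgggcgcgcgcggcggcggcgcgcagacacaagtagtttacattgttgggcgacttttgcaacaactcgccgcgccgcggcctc
RARG: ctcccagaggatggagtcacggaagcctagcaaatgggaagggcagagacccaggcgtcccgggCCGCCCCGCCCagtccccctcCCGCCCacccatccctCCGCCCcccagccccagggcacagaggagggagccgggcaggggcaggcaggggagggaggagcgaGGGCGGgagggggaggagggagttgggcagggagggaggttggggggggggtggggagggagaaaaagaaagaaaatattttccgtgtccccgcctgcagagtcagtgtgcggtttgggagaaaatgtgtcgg
THRB: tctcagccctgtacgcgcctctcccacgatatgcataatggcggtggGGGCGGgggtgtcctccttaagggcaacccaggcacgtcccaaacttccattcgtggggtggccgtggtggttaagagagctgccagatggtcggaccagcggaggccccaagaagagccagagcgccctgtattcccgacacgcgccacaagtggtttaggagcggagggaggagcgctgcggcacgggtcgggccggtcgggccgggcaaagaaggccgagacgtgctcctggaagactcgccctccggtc
These windows hold GGGCGG 6 times in RXRA, 5 times in RARG and 1 time in THRB, counting overlapping matches, and AGGTCA in none of them. A RefSeq window was found for 33 of the 37 receptors, some with several start sites, 76 windows in all. GGGCGG was in 23 of the 33 and AGGTCA in 7 of the 33, where 48.3% and 16.5% of the 27305 genes with windows held them on either strand. The receptors had more windows per gene than the 35116 windows of all genes, and so more places for a match. Per window, GGGCGG was in 55.3% for the receptors and 45.0% for all genes, and AGGTCA in 14.5% and 13.8%. Of the 9 receptors lower with both shRNAs that had a window, 6 held GGGCGG, and only NR1H3 and PPARG held AGGTCA. TGACGTCA, the CRE bound by CREB-family factors, was in 1 of the 33 (NR6A1) and in 2.2% of genes. TGANTCA, which AP-1 binds, was in 5 of the 33 and in 9.4% of genes, and CACGTG, the E-box of clock and MYC factors, in 6 of the 33 and in 8.8%. None of the 9 held TGANTCA or CACGTG. None of these motifs contains another, and GGGCGG was added after the sequences were seen.

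**Figure D2:**
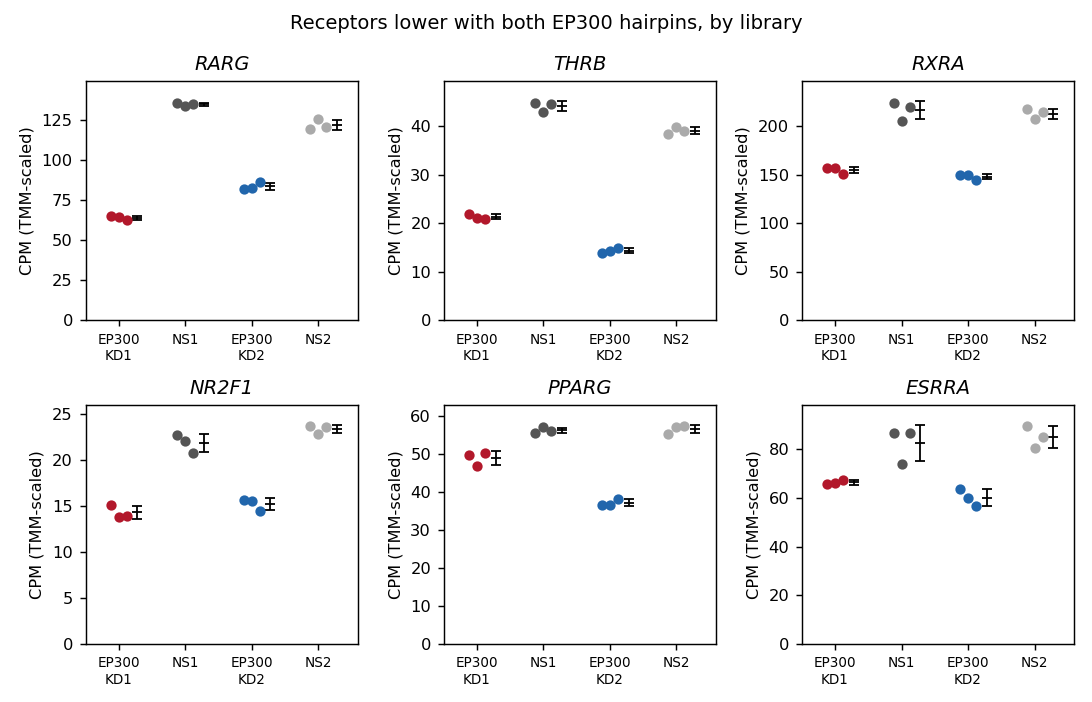
CPM (TMM-scaled, vertical axes from 0) of 6 receptors lower with both shRNAs, 1 point per library, with the mean and SD of 3 libraries beside each group in the order EP300 KD1, NS1, EP300 KD2, NS2. In every panel all EP300 shRNA points lie below all control points; RARG averages 63.8 CPM in EP300 KD1 and 135 CPM in NS1.

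RARA, THRA and VDR behaved differently with the 2 shRNAs. RARA (NM_000964), retinoic acid receptor alpha, read 33.4, 33.4 and 32.5 CPM in EP300 KD1, against 30.2, 30.5 and 31.7 CPM in NS1, and 30.1, 32.8 and 31 CPM in EP300 KD2, against 36.2, 36.9 and 35.6 CPM in NS2. The EP300 KD1 libraries lay just above their controls and the EP300 KD2 libraries below theirs. The log2 change was 0.10 ± 0.04 (SE, edgeR adjusted p = 0.0259) for EP300 KD1 and -0.21 ± 0.04 (SE, edgeR adjusted p = 8.46e-05) for EP300 KD2. The rise with the first shRNA was slight and did not pass without NS1 replicate 1 or 2 or EP300 KD1 replicate 1 or 2 (edgeR adjusted p up to 0.0902), with no filter on low counts (edgeR adjusted p = 0.052) or with DESeq2 (adjusted p = 0.101), and it was -0.01 with both control lines averaged. RARA exons share 556 bases with RARA-AS1 on the opposite strand, and the strand setting of the counting is not given, so reads of the pair may be mixed.

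THRA (NM_001190919), thyroid hormone receptor alpha, averaged 31.3 ± 0.422 CPM in EP300 KD1 and 22.4 ± 0.405 CPM in NS1 (SD, n = 3 each), a log2 change of 0.49 ± 0.04 (SE, edgeR adjusted p = 1.82e-09). It averaged 23.3 ± 0.841 CPM in EP300 KD2 and 22.9 ± 0.6 CPM in NS2, and there the change of 0.02 (95% interval -0.06 to 0.11) did not pass. VDR (NM_000376), the vitamin D receptor, averaged 107 ± 3 CPM in EP300 KD1 and 107 ± 0.653 CPM in NS1, a log2 change of 0.00 (95% interval -0.05 to 0.06) that did not pass. In the second set VDR averaged 116 ± 0.646 CPM in EP300 KD2 and 139 ± 2.63 CPM in NS2, and its log2 change was -0.26 ± 0.03 (SE, edgeR adjusted p = 5.54e-08). NS2 exceeded NS1 by 0.38 ± 0.03 (SE, edgeR adjusted p = 4.03e-09), and the EP300 KD2 libraries lay above the EP300 KD1 libraries. With both control lines averaged, VDR was lower in EP300 KD1 by a log2 change of -0.18 (edgeR adjusted p = 8.06e-07).

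Among the receptors for fatty acids and oxysterols, all 5 that were tested were lower in EP300 KD2, and 3 of them in EP300 KD1 too. PPARG (NM_005037) encodes the regulator of fat cell differentiation that is also active in secretory epithelia. It read 49.9, 46.8 and 50.3 CPM in EP300 KD1, against 55.7, 57 and 56.2 CPM in NS1, and 36.6, 36.7 and 38.2 CPM in EP300 KD2, against 55.4, 57.1 and 57.3 CPM in NS2. The EP300 KD2 libraries were the lowest and the EP300 KD1 libraries lay between them and the controls. PPARG changed by log2 -0.20 ± 0.03 (SE, edgeR adjusted p = 3.21e-05) in EP300 KD1 and -0.61 ± 0.03 (SE, edgeR adjusted p = 1.64e-11) in EP300 KD2, and the difference was -0.41 ± 0.05 (SE, edgeR adjusted p = 1.02e-06).

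PPARD (NM_177435), a widely expressed sensor of fatty acids, read 60.1, 66 and 61.8 CPM in EP300 KD1, against 77.7, 75.1 and 73.6 CPM in NS1, and 64.4, 67.5 and 63.9 CPM in EP300 KD2, against 94.3, 91.1 and 89.5 CPM in NS2. Neither set overlapped with its controls, at log2 changes of -0.27 ± 0.04 (SE, edgeR adjusted p = 3.47e-06) for EP300 KD1 and -0.49 ± 0.04 (SE, edgeR adjusted p = 7.06e-10) for EP300 KD2. NS2 was itself higher than NS1, by a log2 difference of 0.28 (edgeR adjusted p = 8.24e-06). PPARA (NM_005036), the receptor that drives fatty acid oxidation in liver, went in opposite directions. It read 56.2, 54.3 and 56.4 CPM in EP300 KD1, against 42.7, 43.8 and 42.2 CPM in NS1, and 31.7, 29.7 and 30.2 CPM in EP300 KD2, against 45, 47.5 and 47.5 CPM in NS2. EP300 KD1 was above both controls and EP300 KD2 below both. The log2 change was 0.38 ± 0.03 (SE, edgeR adjusted p = 1.48e-08) in EP300 KD1 and -0.61 ± 0.04 (SE, edgeR adjusted p = 3.86e-11) in EP300 KD2, and the test of the difference gave -0.99 ± 0.05 (SE, edgeR adjusted p = 1.08e-11).

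NR1H3 (NM_001251934) encodes LXR alpha, an oxysterol sensor that promotes cholesterol export. Its level was 20, 19.4 and 17.8 CPM in EP300 KD1, against 22.7, 20.2 and 20.7 CPM in NS1, and 15.1, 16.5 and 15.1 CPM in EP300 KD2, against 21.3, 20.7 and 21.6 CPM in NS2. Both sets were below their controls, with a wider gap in the second. The log2 change in EP300 KD1 was -0.15 ± 0.06 (SE, edgeR adjusted p = 0.0235) and did not pass without NS1 replicate 1 (edgeR adjusted p = 0.141) or EP300 KD1 replicate 3 (edgeR adjusted p = 0.137), or with upper-quartile factors (edgeR adjusted p = 0.0504). In EP300 KD2 it was -0.45 ± 0.06 (SE, edgeR adjusted p = 1.66e-06). NR1H3 shares 189 exon bases with ACP2 on the opposite strand. Its outermost RefSeq promoter window, chr11:47248050-47248349 on the plus strand, is shown for the single AGGTCA (capitals) that it holds.
NR1H3: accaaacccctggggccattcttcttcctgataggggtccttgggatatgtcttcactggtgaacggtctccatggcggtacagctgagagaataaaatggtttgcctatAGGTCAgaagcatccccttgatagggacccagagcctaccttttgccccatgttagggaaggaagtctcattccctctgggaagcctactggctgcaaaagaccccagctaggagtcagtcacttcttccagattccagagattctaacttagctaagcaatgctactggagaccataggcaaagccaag
NR1H2 (NM_007121), LXR beta, averaged 85.6 ± 3.76 CPM in EP300 KD1 and 85.3 ± 6.04 CPM in NS1, a log2 change of 0.00 (95% interval -0.09 to 0.10) that did not pass. It averaged 70.2 ± 2.59 CPM in EP300 KD2 and 80.5 ± 3 CPM in NS2, a log2 change of -0.19 ± 0.05 (SE, edgeR adjusted p = 0.00136). The bile acid receptor NR1H4 and the xenobiotic receptor NR1I3 had 0 counts in all 12 libraries. With 420723357 counts in all, 0 allows up to 0.00713 CPM for each, a limit that covers counting error only. NR1I3 shares 661 exon bases with TOMM40L on the opposite strand, so the limit may be too low for it if the counting left out reads of both genes. The xenobiotic receptor NR1I2 had 7 counts in all 12 libraries together.

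Of the clock receptors, NR1D1 and RORA were tested. They bind the same response elements, NR1D1 (REV-ERB alpha) as a repressor and RORA as an activator of BMAL1. NR1D1 (NM_021724) read 20.5, 19.7 and 16.9 CPM in EP300 KD1, against 19.1, 20.1 and 19.2 CPM in NS1, which overlapped. It read 13.9, 13.2 and 13.9 CPM in EP300 KD2, against 23.8, 21.8 and 23.2 CPM in NS2, where the EP300 KD2 libraries were the lowest of the 12. The log2 change of -0.03 in EP300 KD1 (95% interval -0.16 to 0.10) did not pass, that in EP300 KD2 was -0.75 ± 0.06 (SE, edgeR adjusted p = 4.91e-09), and the difference was -0.72 ± 0.09 (SE, edgeR adjusted p = 1.47e-06). With both control lines averaged, the EP300 KD1 change was -0.15 and passed (edgeR adjusted p = 0.0197).

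RORA (NM_134261) read 3.08, 3.18 and 4.24 CPM in EP300 KD1, against 1.17, 1.35 and 1.5 CPM in NS1. With the second shRNA it read 1.4, 1.35 and 1.14 CPM in EP300 KD2, against 1.42, 1.45 and 1.35 CPM in NS2. The EP300 KD1 libraries stood above the other 9, which overlapped one another. The log2 change was 1.38 ± 0.15 (SE, edgeR adjusted p = 1.46e-07) in EP300 KD1 and -0.11 in EP300 KD2 (95% interval -0.46 to 0.24), which did not pass, and the difference was -1.48 ± 0.22 (SE, edgeR adjusted p = 1.89e-05). RORA rested on 37 to 146 counts per library and shares 564 exon bases with RORA-AS1. NR1D1 and THRA overlap tail to tail: on chromosome 17 they share 263 exon bases on opposite strands, so their counts may hold reads of each other.

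**Figure D3:**
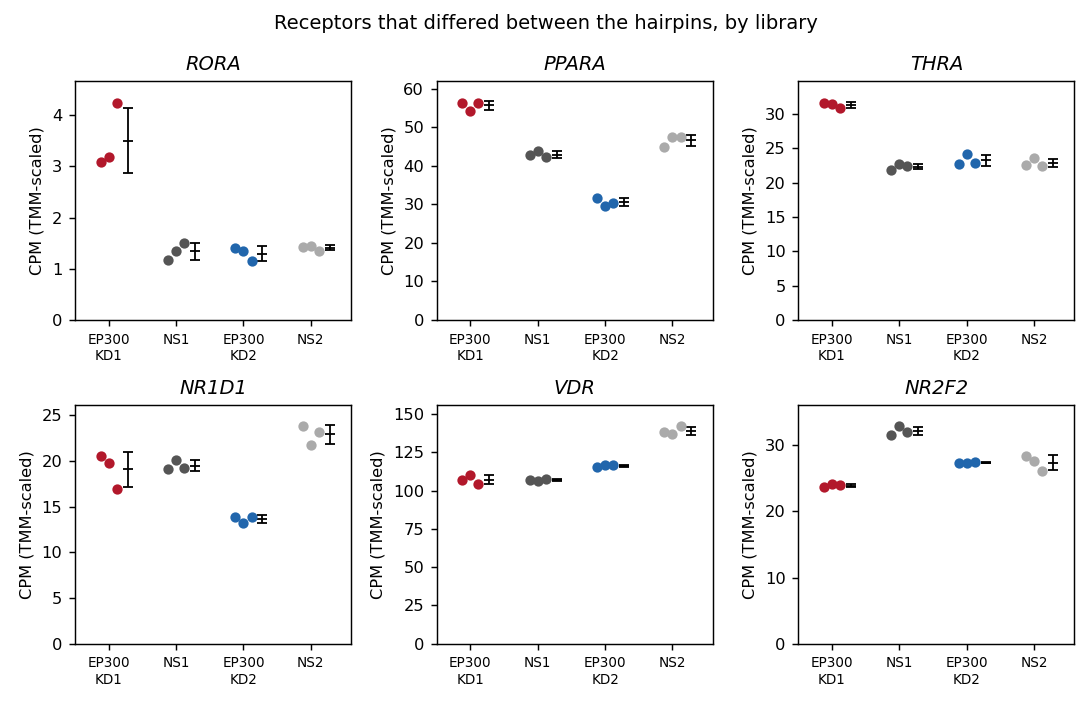
CPM (TMM-scaled, vertical axes from 0) of 6 receptors whose change differed between the shRNAs, 1 point per library, with the mean and SD of 3 libraries, groups in the order EP300 KD1, NS1, EP300 KD2, NS2. RORA and THRA stand high in EP300 KD1 only, PPARA is high in EP300 KD1 and low in EP300 KD2, and VDR is high in NS2.

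Among the steroid receptors and their relatives, NR3C1, ESR1, ESR2 and ESRRA were tested. NR3C1 (NM_001204264), the glucocorticoid receptor, averaged 147 ± 3.49 CPM in EP300 KD1 and 144 ± 3.01 CPM in NS1, a log2 change of 0.03 (95% interval -0.03 to 0.09) that did not pass. It averaged 142 ± 3.58 CPM in EP300 KD2 and 154 ± 3.37 CPM in NS2, a log2 change of -0.11 ± 0.03 (SE, edgeR adjusted p = 0.0022) that did not pass with upper-quartile factors, library totals alone or no filter on low counts (edgeR adjusted p = 0.0627, 0.186 and 0.0881). ESRRA (NM_004451), estrogen-related receptor alpha, an orphan receptor that controls mitochondrial genes, read 65.7, 66 and 67.4 CPM in EP300 KD1, against 86.8, 74 and 86.7 CPM in NS1. It read 63.8, 59.9 and 56.8 CPM in EP300 KD2, against 89.4, 80.4 and 85.2 CPM in NS2 in the second set. Both sets were below their controls without overlap, at log2 changes of -0.32 ± 0.05 (SE, edgeR adjusted p = 3.91e-05) for EP300 KD1 and -0.50 ± 0.05 (SE, edgeR adjusted p = 2e-07) for EP300 KD2. ESRRA shares 284 exon bases with TRMT112 on the opposite strand.

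ESR1 (NM_001122742), estrogen receptor alpha, was low throughout, at 36 to 114 counts per library. It read 1.22, 1.03 and 1.28 CPM in EP300 KD1, against 2.1, 2.64 and 2.52 CPM in NS1, and 1.31, 1.26 and 1.57 CPM in EP300 KD2, against 1.9, 2.02 and 1.41 CPM in NS2. EP300 KD1 lay below NS1, while EP300 KD2 and NS2 overlapped. The log2 change was -1.04 ± 0.16 (SE, edgeR adjusted p = 1.44e-05) in EP300 KD1 and -0.37 ± 0.16 (SE, edgeR adjusted p = 0.0635) in EP300 KD2. The second passed without NS2 replicate 3 (log2 -0.50, edgeR adjusted p = 0.016), without EP300 KD2 replicate 3 (log2 -0.46, edgeR adjusted p = 0.0398) and with both control lines averaged (log2 -0.59, edgeR adjusted p = 0.00117). The difference between the changes was 0.67 ± 0.23 (SE, edgeR adjusted p = 0.0206). It missed the threshold without NS2 replicate 3, EP300 KD1 replicate 2 or EP300 KD2 replicate 3 (edgeR adjusted p up to 0.0587). With DESeq2 it also missed the threshold (log2 0.70, adjusted p = 0.0631).

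ESR2, estrogen receptor beta, had 6 to 19 counts per library on the 1 of its 3 rows that held any, and passed in neither comparison (log2 0.67, edgeR adjusted p = 0.0691, and 0.18, edgeR adjusted p = 0.64). In EP300 KD1 it passed without NS1 replicate 3 (log2 0.92, edgeR adjusted p = 0.0408) and with limma-voom (log2 0.70, adjusted p = 0.0342). The mineralocorticoid receptor NR3C2 had 66 counts in all 12 libraries together and was not tested. PGR, the progesterone receptor, had 0 counts on its 4 rows. For the same reason as for KRT8, absence cannot be read from PGR, from RARB (0 counts on 3 rows) or from NR1D2 (20 counts on 2 rows). Nor can a low level be read from ESR2 with its 3 rows. ESR2 also shares 523 exon bases with another annotated gene on the same strand.

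Of the remaining orphan receptors, NR2F1, NR2F6 and NR6A1 were lower with both shRNAs. NR2F1 (NM_005654), known as COUP-TF1, mostly represses transcription and is best studied in neural development. It read 15.2, 13.8 and 13.9 CPM in EP300 KD1, against 22.7, 22.1 and 20.8 CPM in NS1, and 15.7, 15.5 and 14.5 CPM in EP300 KD2, against 23.7, 22.8 and 23.6 CPM in NS2. The shRNA groups overlapped each other and lay below both controls. The log2 changes were nearly equal, -0.61 ± 0.05 (SE, edgeR adjusted p = 6.48e-09) in EP300 KD1 and -0.62 ± 0.05 (SE, edgeR adjusted p = 5.62e-09) in EP300 KD2, with a difference of -0.01 (95% interval -0.16 to 0.15). NR2F1 shares 158 exon bases with NR2F1-AS1 on the opposite strand.

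NR2F6 (NM_005234), a related repressor known as EAR2, read 48.1, 51.8 and 48.5 CPM in EP300 KD1, against 60.8, 55 and 60.4 CPM in NS1, and 51, 47.5 and 47.8 CPM in EP300 KD2, against 60.8, 59.6 and 59 CPM in NS2. All shRNA libraries were below all controls, with log2 changes of -0.25 ± 0.04 (SE, edgeR adjusted p = 3.43e-05) in EP300 KD1 and -0.29 ± 0.04 (SE, edgeR adjusted p = 6.42e-06) in EP300 KD2. NR2F6 shares 221 exon bases with another protein-coding gene on the same strand. NR6A1 (NM_001278546), the germ cell nuclear factor, read 7.76, 8 and 8.01 CPM in EP300 KD1, against 9.34, 9.38 and 9.69 CPM in NS1, and 7.33, 7.75 and 6.11 CPM in EP300 KD2, against 9.7, 8.49 and 9.25 CPM in NS2. It too was lower without overlap, with log2 changes of -0.26 ± 0.08 (SE, edgeR adjusted p = 0.0111) in EP300 KD1 and -0.37 ± 0.08 (SE, edgeR adjusted p = 0.00097) in EP300 KD2.

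NR2F2 (NM_001145155), the close relative COUP-TF2, averaged 23.9 ± 0.23 CPM in EP300 KD1 and 32.2 ± 0.647 CPM in NS1, a log2 change of -0.43 ± 0.04 (SE, edgeR adjusted p = 7.44e-09). It averaged 27.4 ± 0.119 CPM in EP300 KD2 and 27.4 ± 1.1 CPM in NS2, where the change was 0.00 (95% interval -0.08 to 0.08) and did not pass. The difference was 0.43 ± 0.05 (SE, edgeR adjusted p = 1.75e-06). NR2F2 was lower in NS2 than in NS1 (log2 -0.23 ± 0.04 (SE, edgeR adjusted p = 0.000103)), and with both control lines averaged EP300 KD2 was lower by a log2 change of -0.12 (edgeR adjusted p = 0.00389).

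The testicular receptors NR2C1 and NR2C2 had the smallest changes that passed. NR2C2 (NM_001291694) averaged 73.1 ± 1.31 CPM in EP300 KD1 and 69 ± 1.92 CPM in NS1, a log2 change of 0.08 ± 0.03 (SE, edgeR adjusted p = 0.0152) that did not pass without NS1 replicate 2, NS1 replicate 3 or EP300 KD1 replicate 3 (edgeR adjusted p up to 0.0753), or with DESeq2 (adjusted p = 0.0572). It averaged 73.2 ± 0.396 CPM in EP300 KD2 and 71.2 ± 0.9 CPM in NS2, where log2 0.04 (95% interval -0.02 to 0.10) did not pass. NR2C2 shares 1197 exon bases with MRPS25 on the opposite strand. NR2C1 (NM_003297) averaged 40.7 ± 1.15 CPM in EP300 KD1 and 42 ± 1.04 CPM in NS1, a log2 change of -0.05 (95% interval -0.13 to 0.03) that did not pass. It averaged 42.5 ± 1.31 CPM in EP300 KD2 and 39.9 ± 1.29 CPM in NS2, a log2 change of 0.09 ± 0.04 (SE, edgeR adjusted p = 0.049) that did not pass in 7 of the 12 fits that leave out 1 library (edgeR adjusted p up to 0.137). Nor did it pass with DESeq2 (adjusted p = 0.0606), limma-voom (adjusted p = 0.0565) or both control lines averaged (edgeR adjusted p = 0.175).

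HNF4G (NM_004133), a regulator of gut and liver genes, had 5 to 20 counts per library. It read 0.193, 0.172 and 0.377 CPM in EP300 KD1, against 0.438, 0.307 and 0.397 CPM in NS1, and 0.404, 0.549 and 0.34 CPM in EP300 KD2, against 0.158, 0.211 and 0.184 CPM in NS2. The first set overlapped and the second did not. HNF4G had a log2 change of -0.62 ± 0.34 (SE, edgeR adjusted p = 0.124) in EP300 KD1 and 1.21 ± 0.36 (SE, edgeR adjusted p = 0.0074) in EP300 KD2, and the difference was 1.83 ± 0.50 (SE, edgeR adjusted p = 0.00493). NS2 was below NS1 (log2 -1.04 ± 0.37 (SE, edgeR adjusted p = 0.0436)), and EP300 KD1 and EP300 KD2 overlapped. Without EP300 KD1 replicate 3 the first change was -1.06 and passed (edgeR adjusted p = 0.0262). HNF4G passed the filter on low counts mainly through NS1 and EP300 KD2, where it was high, so no change was read from it. Its relative HNF4A had 30 counts in all 12 libraries together, NR5A2 had 30 and the photoreceptor gene NR2E3 had 63, and none was tested.

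The immediate early receptors NR4A1, NR4A2 and NR4A3 are induced within minutes by growth and stress signals. NR4A2 (NM_006186) read 7.86, 7.08 and 7.46 CPM in EP300 KD1, against 9.11, 8.73 and 9.16 CPM in NS1, and 5.35, 5.69 and 5.09 CPM in EP300 KD2, against 6.07, 7.79 and 6.95 CPM in NS2. Each shRNA group was below its own control, but NS2 was also below NS1 (log2 -0.38 ± 0.09 (SE, edgeR adjusted p = 0.00314)). The log2 change was -0.27 ± 0.09 (SE, edgeR adjusted p = 0.0101) in EP300 KD1 and -0.37 ± 0.09 (SE, edgeR adjusted p = 0.00192) in EP300 KD2, and the first did not pass with both control lines averaged (log2 -0.08, edgeR adjusted p = 0.346). NR4A1, with 101 to 189 counts per library, passed in neither comparison (log2 0.19, edgeR adjusted p = 0.221, and -0.15, edgeR adjusted p = 0.37). Without EP300 KD1 replicate 3 its change in EP300 KD1 was 0.34 and passed (edgeR adjusted p = 0.0332). NR4A3 had 34 counts in all 12 libraries together and was not tested.

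The 2 shRNAs were compared directly by testing the change in EP300 KD2 minus the change in EP300 KD1. Of the 26 receptors, 17 differed: 12 had a lower and 5 a higher value with the second shRNA, where 29.2% of all rows were lower and 21.6% higher, 50.8% in all. RORA, PPARA, NR1D1 and THRA had the lowest differences and HNF4G, ESR1, RARG and NR2F2 the highest, with NR2C1 the fifth above 0. No difference was read from HNF4G, because of the way it passed the filter. Without NS2 replicate 3, EP300 KD1 replicate 2 or EP300 KD2 replicate 3 the receptors above 0 were 3, without ESR1 and NR2C1. NR2C1 alone also missed the threshold without 5 other libraries (NS1 replicates 2 and 3, NS2 replicate 1, EP300 KD1 replicate 1 and EP300 KD2 replicate 2). The others below 0 were PPARG, THRB, RARA, NR1H3, VDR, PPARD, NR1H2 and NR3C1, from -0.41 to -0.14. NR1H2 missed the threshold without NS1 replicate 2 or NS2 replicate 1 (edgeR adjusted p up to 0.0511). ESRRA, at -0.18 (edgeR adjusted p = 0.0583), did not pass, but passed without NS1 replicate 1 or 3, NS2 replicate 2 or EP300 KD2 replicate 1 (edgeR adjusted p down to 0.025).

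The control lines also differed from each other. In NS2 against NS1, 6 receptors were higher (VDR, PPARD, NR1D1, RARA, PPARA and NR3C1) and 6 lower (HNF4G, ESR1, NR4A2, NR2F2, THRB and RARG), where 14.2% of all rows were higher and 13.4% lower, 27.5% in all. The calls ran from a log2 difference of -1.04 for HNF4G, from which no difference was read, to 0.38 for VDR. Those of NR3C1 and PPARA missed the threshold without NS1 replicate 3 or NS2 replicate 2, and that of PPARA also without NS2 replicate 3. The call of ESR1 was lost without NS1 replicate 2 or 3 or NS2 replicate 1 or 3, and that of HNF4G without NS1 replicate 1 or 3, any NS2 replicate or EP300 KD2 replicate 1. ESR1 also did not pass with DESeq2 (adjusted p = 0.115), nor HNF4G with a replicate block (edgeR adjusted p = 0.0612). For RARG, at -0.15, and THRB, at -0.17, the difference between controls was smaller than either change with an EP300 shRNA.

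Genes that work with the receptors were described from lists of known coregulators and targets. Where a gene is given a pair of log2 changes, EP300 KD1 against NS1 comes before EP300 KD2 against NS2. The counts of each list stand against all rows, of which 32.6% were higher and 32.3% lower in EP300 KD1 (64.9% called) and 27.9% higher and 29.9% lower in EP300 KD2 (57.8% called). Of 16 coactivators, EP300 included, 7 were higher and 4 lower in EP300 KD1, and 2 higher and 4 lower in EP300 KD2. With 68.8% of them called in EP300 KD1 and 37.5% in EP300 KD2, the coactivators were near the share of all rows with the first shRNA and below it with the second. PRMT1, counted among those that did not pass, has 2 accession rows with 286 counts in all, and the row tested is non-coding. As for KRT8, a low level cannot be read from PRMT1. The 2 higher became 4 with upper-quartile factors, library totals alone or no filter. PPARGC1A, the coactivator PGC-1 alpha of PPAR and ERR receptors, fell to 0.934 ± 0.226 CPM in EP300 KD1, against 16.4 ± 0.909 CPM in NS1. It fell to 0.819 ± 0.122 CPM in EP300 KD2, against 14.1 ± 0.552 CPM in NS2, log2 changes of -4.14 ± 0.12 (SE, edgeR adjusted p = 3.17e-16) and -4.08 ± 0.12 (SE, edgeR adjusted p = 6.6e-16). NCOA7, an estrogen receptor coactivator, fell with both shRNAs (log2 -0.52 and -0.90). PNRC1, a proline-rich coactivator, rose in EP300 KD1 (log2 1.28) and did not pass in EP300 KD2 (log2 0.01, edgeR adjusted p = 0.897). NCOA3, the steroid receptor coactivator amplified in breast cancer, likewise rose in EP300 KD1 (log2 0.62) and did not pass in EP300 KD2 (log2 0.04, edgeR adjusted p = 0.238).

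Of 11 corepressors, 6 were higher and 3 lower in EP300 KD1, and 3 higher and 6 lower in EP300 KD2, where library totals alone gave 3 lower. In both comparisons 81.8% of them were called, against 64.9% of all rows in EP300 KD1 and 57.8% in EP300 KD2. TBL1X, a subunit of the NCOR complex, fell with both shRNAs (log2 -1.25 and -1.44). The histone demethylase gene KDM1A rose with both (log2 0.18 and 0.15). NRIP1, a corepressor of ligand-bound receptors, rose in EP300 KD1 (log2 0.27) and fell in EP300 KD2 (log2 -0.08). Of further receptor genes outside the 37, ESRRG rose in EP300 KD1 (log2 0.81) and fell in EP300 KD2 (log2 -0.99). ESRRB had 100 counts in all 12 libraries together. It averaged 0.498 CPM in EP300 KD1, 0.0836 CPM in NS1, 0.228 CPM in EP300 KD2 and 0.153 CPM in NS2. It passed the filter on low counts mainly through EP300 KD1, so no change was read from it.

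Of 14 tested genes that handle retinoids or respond to retinoic acid, 7 were lower and 2 higher in EP300 KD1 (median log2 -0.44), and 11 lower and 3 higher in EP300 KD2 (median log2 -0.62). In EP300 KD1 64.3% of them were called, against 64.9% of all rows, and in EP300 KD2 100%, against 57.8%. Without NS1 replicate 2, NS1 replicate 3 or EP300 KD1 replicate 1, 1 was higher in EP300 KD1. RARRES1, a gene first found by its induction with a synthetic retinoid, averaged 23.1 ± 0.779 CPM in EP300 KD1 and 157 ± 7.03 CPM in NS1, and 16.9 ± 1.65 CPM in EP300 KD2 and 131 ± 8.67 CPM in NS2 (log2 -2.77 and -2.96). DHRS9, a retinol dehydrogenase gene (log2 -2.31 and -3.21), LRAT, which stores retinol as ester (log2 -1.05 and -1.23), and DHRS3, which reduces retinal (log2 -0.70 and -0.48), fell with both shRNAs.

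Of 10 LXR targets, 6 were lower and 2 higher in EP300 KD1 (median log2 -0.39), and 8 lower in EP300 KD2 (median log2 -0.34), where the other 2 did not pass. That is 80% called in each comparison, against 64.9% and 57.8% of all rows. The sterol exporters ABCG1 (log2 -2.20 and -3.12) and ABCA1 (log2 -0.58 and -1.45) fell with both shRNAs, as did the lipogenic regulator SREBF1 (log2 -0.61 and -0.69). SCD, a fatty acid desaturase gene, rose in EP300 KD1 (log2 0.19) and fell in EP300 KD2 (log2 -0.33). NS2 was below NS1 in 5 of these 10 genes (13.4% of all rows) and above it in 1 (14.2% of all rows).

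Of 13 PPAR targets, 6 were lower and 4 higher in EP300 KD1 (median log2 0.00), and 10 lower and 1 higher in EP300 KD2 (median log2 -0.19). The share called was 76.9% in EP300 KD1 and 84.6% in EP300 KD2, against 64.9% and 57.8% of all rows. The lower genes include FABP4, at 0 CPM in EP300 KD1 and 0.438 CPM in NS1. FABP4 averaged 0.00793 CPM in EP300 KD2 and 0.266 CPM in NS2. It passed the filter on low counts through the control lines, so no change was read from it. The fatty acid transporter CD36 (log2 -1.0 and -2.83) and the acyl-CoA synthetase gene ACSL1 (log2 -0.09 and -0.94) fell with both. ANGPTL4, an inhibitor of lipoprotein lipase that glucocorticoids also induce, rose with both (log2 1.84 and 0.91).

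Of 15 tested genes that are glucocorticoid targets or handle cortisol, 9 were higher and 4 lower in EP300 KD1 (median log2 0.43). In EP300 KD2, 5 were higher and 9 lower (median log2 -0.36). The share called was 86.7% in EP300 KD1 and 93.3% in EP300 KD2, against 64.9% and 57.8% of all rows. The change in EP300 KD2 minus that in EP300 KD1 passed below 0 in 12 of the 15, against 29.2% of all rows. The 9 higher genes and these 12 include HSD11B1, at 1.17 CPM in EP300 KD1 and 0.0523 CPM in NS1. HSD11B1 averaged 0.195 CPM in EP300 KD2 and 0.0931 CPM in NS2. It passed the filter on low counts mainly through EP300 KD1, so no change was read from it. The phosphatase gene DUSP1 rose with both (log2 1.36 and 0.55), and the EGF receptor inhibitor ERRFI1 (log2 -0.61 and -0.95) and glutamine synthetase GLUL (log2 -1.10 and -0.91) fell with both. Of 10 vitamin D genes, 5 were lower and 4 higher in EP300 KD1 and 5 lower and 3 higher in EP300 KD2, 90% and 80% called against the same shares of all rows. KLK6 (log2 -5.78 and -4.62), IGFBP3 (log2 -3.79 and -2.88) and CD14 (log2 -0.65 and -1.62) fell with both. CYP27B1, which makes the active vitamin D hormone, rose with both (log2 1.35 and 0.51).

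Of 17 other clock genes tested, 11 were higher and 5 lower in EP300 KD1 (median log2 0.20), and 2 higher and 11 lower in EP300 KD2 (median log2 -0.30), 94.1% and 76.5% called against 64.9% and 57.8% of all rows. The change in EP300 KD2 minus that in EP300 KD1 passed below 0 in 13 of the 17, against 29.2% of all rows, as it did for NR1D1 and RORA. BMAL1, which NR1D1 represses and RORA activates, fell with both (log2 -0.77 and -0.74). PER2 (log2 -0.94 and -1.18), NPAS2 (log2 -0.49 and -0.87) and BHLHE41 (log2 -0.55 and -1.37) fell with both as well. Of 7 estrogen receptor targets tested, 6 were lower and 1 higher with each shRNA, 100% called in both. GREB1 (log2 -2.49 and -1.53), the protease gene CTSD (log2 -1.31 and -1.82) and the transcription factor XBP1 (log2 -0.40 and -0.83) fell, and IGFBP4 rose (log2 2.32 and 1.33).

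**Figure D4:**
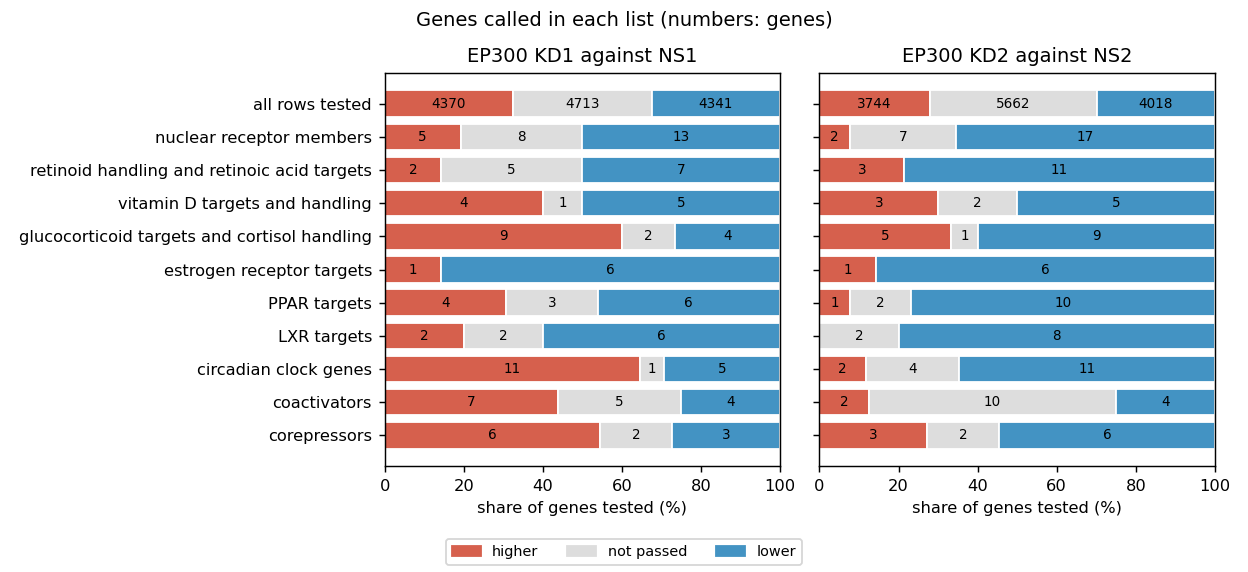
Share of tested genes (horizontal axis, percent) that were higher, lower or did not pass the edgeR test at an adjusted p under 0.05, for all rows and each list, EP300 KD1 against NS1 on the left and EP300 KD2 against NS2 on the right; numbers in the bars count genes. The receptors have 13 lower genes on the left and 17 on the right.

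Cell markers moved with the same comparisons. Of 10 mammary epithelial markers, 8 were lower with each shRNA (32.3% of all rows in EP300 KD1 and 29.9% in EP300 KD2), and their summed level was 6130 to 6420 CPM in EP300 KD1, against 7410 to 7650 CPM in NS1. It was 4900 to 4990 CPM in EP300 KD2, against 8350 to 8510 CPM in NS2. Of 9 fibroblast markers 5 were tested, with COL1A2, COL3A1 and LUM at 0 counts in all libraries. Their sum was 68.8 to 72.1 CPM in EP300 KD1 against 46.9 to 48.8 CPM in NS1, and 26.3 to 29 CPM in EP300 KD2 against 28 to 30.6 CPM in NS2. Of the 5, 4 were higher and 1 lower in EP300 KD1, and 2 higher and 1 lower in EP300 KD2. Among all rows, 32.6% were higher in EP300 KD1 and 27.9% in EP300 KD2. Of 8 leukocyte markers 3 were tested, with PTPRC and CD3E below 0.05 CPM. The leukocyte sum was 67.6 to 74.7 CPM in EP300 KD1 against 52.4 to 63.4 CPM in NS1, and 37.9 to 40.2 CPM in EP300 KD2 against 65.9 to 67.7 CPM in NS2. It follows mainly CD14, at up to 50.7 CPM, and CD68, at up to 43.9 CPM. Of the 3 tested, 1 was higher, 1 lower and 1 did not pass in each comparison. Leaving out 1 library gave 1 to 3 lower in EP300 KD2. Of 7 endothelial markers 3 were tested, with CLDN5 and EMCN at 0. The endothelial markers summed to 13.1 to 15.7 CPM in EP300 KD1 against 28.8 to 32.9 CPM in NS1, and to 6.4 to 7.04 CPM in EP300 KD2 against 38.6 to 40.6 CPM in NS2. PECAM1 reached 40.1 CPM, TEK 4.59 CPM and KDR 0.931 CPM, so the sum follows mainly PECAM1. Of the 3 tested, 2 were higher and 1 lower in EP300 KD1. In EP300 KD2, 1 was higher, 1 lower and 1 did not pass. Any part of these shifts in the receptors' changes was not tested, and in bulk RNA fewer cells of a kind cannot be told apart from less RNA per cell.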

How the data were processed

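RNA sequencing of 12 MCF10AT libraries, 3 in each of EP300 KD1, NS1, EP300 KD2 and NS2, was used. Per the labels' protocols, Trizol RNA went into a stranded TruSeq mRNA kit. The authors used HISAT2 2.1.0 for alignment, hg38 as the genome and featureCounts for counting, per the submitters' processing notes. Not given in the sources used here are the counter's version and its annotation, strand and multi-mapping settings. The deposited table holds raw whole-number counts per RefSeq accession, with totals from 31396653 to 45606950 per library.

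Accessions were matched to symbols through a RefSeq gene table (28130 rows) and GENCODE release 29 tables (490 more), and 474 rows had no symbol. The 37 receptors matched 45 rows; the row with the most counts stands for a symbol with several. Within each group, counts of every replicate pair were farther apart than sampling noise allows (chi-square 1.86 to 4.54 per degree of freedom), so no library was merged.

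Rows were filtered with filterByExpr in edgeR 4.0.16 (R 4.3.3) at its default settings (minimum count 10, minimum total 15), which left 13424, and were scaled by TMM. The 12 libraries entered 1 quasi-likelihood fit with a coefficient for each group, with Benjamini-Hochberg adjustment over all rows tested and a threshold of 0.05. The common biological coefficient of variation was 0.03. Standard errors and 95% intervals were derived from the test statistic. Contrasts compared each EP300 shRNA line with its control, the second of these changes with the first, and NS2 with NS1. The procedure was tested on simulated counts. In EP300 KD1 against NS1 it called 28% of 1.1-fold and 88% of 2-fold changes in the right direction. In EP300 KD2 against NS2 it called 18% and 92%. Far fewer genes were changed in the simulation than were called in these data, so these shares need not hold here. Alternatives were other scalings, no filter, DESeq2 1.42.0, limma-voom (limma 3.58.1), a replicate block, summed rows, fits of single comparisons, both control lines averaged, and leaving out each library.

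Per-library values are given for receptors past the threshold in both comparisons, and for those past it in 1 comparison or in the difference with a log2 change of at least 0.5; other receptors are given by means, intervals or counts. From each list, up to 4 genes with the smallest p were named. The receptors and lists were chosen with earlier results of these data known. Some genes of the lists are not reported here.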

Additional observations from a re-analysis of the deposited data

Results flagged for a closer look

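The change with the second shRNA minus the change with the first was tested as a contrast in the edgeR fit, and 17 of the 26 tested receptors passed at an adjusted p under 0.05. The values, on the log2 scale and positive where the change in EP300 KD2 lay above that in EP300 KD1, were as follows. HNF4G had the highest difference at 1.83, on 5 to 20 counts per library, followed by ESR1 at 0.67, RARG at 0.53, NR2F2 at 0.43 and NR2C1 at 0.14. HNF4G passed the filter on low counts mainly through NS1 and EP300 KD2, so no difference was read from it. RORA had the lowest at -1.48, on 37 to 146 counts per library, and PPARA, called in opposite directions, had -0.99. NR1D1 had -0.72, THRA -0.46, PPARG -0.41 and THRB -0.40. RARA had -0.31, NR1H3 -0.30 and VDR -0.26. PPARD had -0.22, NR1H2 -0.20 and NR3C1 -0.14.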

How the results depend on the processing

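EP300 was lower in both comparisons under every alternative run (log2 -0.70 to -0.66 in EP300 KD1 and -0.90 to -0.83 in EP300 KD2 when 1 library was left out). The count of higher receptors in EP300 KD1 was 3 with DESeq2 in place of 5, and that in EP300 KD2 was 1 with DESeq2 and 1 with limma-voom in place of 2. When 1 library was left out, 3 to 5 receptors were higher and 12 to 13 lower in EP300 KD1 and 1 to 2 higher and 17 to 18 lower in EP300 KD2. The difference then had 3 to 5 higher and 11 to 13 lower, and NS2 against NS1 had 4 to 6 higher and 4 to 6 lower. The receptors lower with both shRNAs numbered 10 to 14 over the alternatives, 14 with both control lines averaged. Signs turned only in values near 0 and, with both controls averaged, in VDR, RARA, NR3C1 and NR2F2; the cause was not tested. In EP300 KD1, NR1H2 had a log2 change of -0.0017 with RLE size factors, -6e-04 without a filter and -0.001 with DESeq2, and -0.0496 to 0.0374 with 1 library left out. VDR had -1e-04 with RLE size factors and DESeq2, -0.18 with both controls averaged and -0.0166 to 0.0245 with 1 library left out. With both controls averaged, NR3C1 was -0.017 and RARA -0.0144 in EP300 KD1, and NR2F2 was -0.12 in EP300 KD2. With 1 library left out, NR1D1 ran from -0.0854 to 0.0484 in EP300 KD1, and NR2F2 from -0.0281 to 0.0283 and THRA from -0.0047 to 0.0535 in EP300 KD2. For the difference, NR2F1 was 0.0143 with RLE size factors and with DESeq2, 0.0255 with upper-quartile factors, 0.063 with library totals, 0.049 without a filter, 0.0015 with summed rows and -0.034 to 0.0402 with 1 library left out. The difference of NR2F6 was 0.0247 with library totals, 0.0108 without a filter and -0.0796 to 0.0058 with 1 library left out. That of RXRA was 0.0278 with library totals, 0.0138 without a filter and -0.0645 to 0.0014 with 1 library left out, and that of NR4A2 ran from -0.18 to 0.002. Same-numbered libraries of a shRNA line and its control did not deviate together (correlations from -0.0396 to 0.0222), and the main fit left them unpaired. Libraries of different numbers were not compared, so whether the numbers denote pairs cannot be told from this. A replicate block gave 5 higher and 13 lower receptors in EP300 KD1, 2 and 17 in EP300 KD2, 5 and 13 in the difference, and 6 and 5 in NS2 against NS1. Another scaling moved the median of all rows by at most 0.0686 (log2). Few counts limit ESR1, RORA, ESR2 and HNF4G, and ESR2 has 3 accession rows. Of the 11 receptors not tested, PGR, RARB and NR1D2 have several accession rows, and depth is not shown to be their limit.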
